A study of Mus musculus with 6 samples.

Results

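The matrix proteinases and their inhibitors were taken as every gene whose symbol begins with Mmp, Timp, Adamts or Adamtsl followed by a number. This rule selected 51 of the 49315 genes in the count table, comprising 23 matrix metalloproteinases (MMPs), 4 tissue inhibitors of metalloproteinases (TIMPs), 19 ADAMTS proteinases and 5 ADAMTS-like genes. Messenger RNA was sequenced from the gastrocnemius, a calf muscle, of male C57BL6J mice that received an adeno-associated virus of serotype AAV9 into the hind limb muscles at 5 months of age, and muscles were collected 5 months later. In the CAAHR group the virus carried AAV9-HSA-CAAHR, a mouse aryl hydrocarbon receptor (AHR) made constitutively active by removing its ligand binding domain, and in the GFP group it carried AAV9-HSA-GFP, a green fluorescent protein. Expression of both transgenes was under the promoter of human skeletal actin (HSA) and thereby limited to muscle fibres, whereas many of the genes described here are known to be made largely by fibroblasts, vascular cells and leukocytes of the same tissue. Both groups had received virus and uninjected muscle is not analysed here, so every direction is relative to muscle given the GFP virus. Whether a gene or leukocyte marker lower in CAAHR differed in either group from uninjected muscle was not tested with these libraries. The study itself compared selected immune genes with mice given no virus by quantitative PCR. It reported that they were not lower in CAAHR muscle, and concluded that the GFP virus promotes a local immune response. Each group had 3 libraries, which are named by the numbers in their labels (CAAHR 31, 34 and 36, and GFP 42, 43 and 46). The study gives its group size in male mice as the same number, but the labels do not name the animal behind each library, so p-values measure the spread between these libraries.

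MMPs are zinc-dependent endopeptidases that cleave collagens, laminins, proteoglycans and many signalling proteins, and TIMPs bind and block their active sites. ADAMTS proteinases share a related catalytic domain followed by thrombospondin-type repeats, and divide by substrate into enzymes that trim procollagens, enzymes that cleave proteoglycans such as aggrecan and versican, and others. ADAMTS-like proteins keep the repeats but lack the catalytic domain. In skeletal muscle these enzymes act on the connective tissue around fibres and on the basement membrane, and several are carried in by leukocytes during inflammation.

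Of the 51 genes, 10 lie side by side on chromosome 9 within 427 kb (GRCm38, chr9:7272514-7699585), and the 250 bases before the RefSeq transcription start (GRCm38.p6) were read for each. The sequence TGANTCA, a form of the AP-1 binding motif, lay in this window in 8 of the 10 cluster genes and in none (0) of the promoters of the 26 other genes here that had an entry. Across 32817 promoters of the same length it was present in 6.75%. The 8 sites are shown because no promoter of the family read outside the cluster had one. Each is printed with the 8 bases on either side, on the strand of the gene, and with the motif in capitals.
Mmp13: caaagtggTGACTCAtcactatc
Mmp12: atcaacagTGAGTCAgatagagg
Mmp1b: acaaagccTGAGTCAtatagcct
Mmp3: agcaattaTGAGTCAgttttcgg
Mmp1a: gtcaaccaTGAGTCAcatagcct
Mmp10: cacccatgTGAGTCAtgcttagt
Mmp20: ttgagacaTGAATCAtcacttac
Mmp7: tgtgcaaaTGAGTCAcctatttc
The site of Mmp3, for example, lay 46 bases before the start. Mmp8 and Mmp27, the other two genes of the cluster, had no TGANTCA in the window. A match is a description of the letters only, and most of this cluster had few or no counts in these muscles. The highest count of Mmp13 in any library was 4, Mmp1a, Mmp1b, Mmp7 and Mmp20 had no count in any library, and only Mmp3 and Mmp8 had enough reads to be tested.

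The core sequence recognised by AHR with its partner ARNT, GCGTG on either strand, was found in 14 of 39 promoters of 36 of these genes (35.9%) against 28.1% of all promoters, and the longer form TNGCGTG in 3 (7.69%, those of Adamts1, Mmp7 and Timp3) against 4.1%. The remaining 15 genes had no promoter entry. The TATA sequence TATAAA was found in 10 of the 39 (25.6%), against 12.4% of all promoters. The promoters of Adamts14 (chr10:61273420-61273669, minus strand), Adamts2 (chr11:50601835-50602084, plus strand) and Mmp8 (chr9:7558179-7558428, plus strand) are printed from RefSeq because these were the 3 genes past the test below that had an entry, and capitals mark the core AHR, AP-1 and TATA motifs on either strand.
Adamts14: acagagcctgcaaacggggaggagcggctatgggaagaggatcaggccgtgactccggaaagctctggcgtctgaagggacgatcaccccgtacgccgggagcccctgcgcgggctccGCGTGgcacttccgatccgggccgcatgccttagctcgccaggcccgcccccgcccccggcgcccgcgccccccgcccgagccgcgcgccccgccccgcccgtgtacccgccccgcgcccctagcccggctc
Adamts2: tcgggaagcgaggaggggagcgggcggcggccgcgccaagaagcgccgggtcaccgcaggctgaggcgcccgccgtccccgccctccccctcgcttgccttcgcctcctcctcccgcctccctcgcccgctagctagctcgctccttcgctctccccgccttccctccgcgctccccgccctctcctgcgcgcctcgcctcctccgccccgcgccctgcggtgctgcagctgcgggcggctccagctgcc
Mmp8: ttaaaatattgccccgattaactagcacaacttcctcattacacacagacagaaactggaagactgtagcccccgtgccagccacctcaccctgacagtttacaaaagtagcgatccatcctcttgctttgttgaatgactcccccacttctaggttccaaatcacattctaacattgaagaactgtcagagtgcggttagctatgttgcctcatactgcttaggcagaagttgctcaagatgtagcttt
Adamts14 held a single GCGTG, 132 bases before the start, in a window of 76.4% G and C. Adamts2 and Mmp8 held none of the 3 motifs, at 78% and 44.8% G and C.

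Library totals ranged from 43432994 to 58825752 counts. Ahr, the transgene's own gene, was at 9.97, 22.8 and 17.3 CPM (counts scaled by TMM to a common library size) in CAAHR 31, 34 and 36 and at 1.87 to 2.55 CPM in the GFP libraries, so that every library labelled CAAHR was above every library labelled GFP. The muscle fibre markers were abundant, at 122000, 149000 and 138000 CPM in sum in CAAHR 31, 34 and 36 and at 173000, 172000 and 171000 CPM in GFP 42, 43 and 46. These groups did not overlap, and 2 of the 8 markers, Acta1 and Ckm, were lower in CAAHR by edgeR. The list did not move as a whole, with 5 log2 fold changes above 0 and 3 below (median 0.21). DESeq2 called 1 of the 8 higher and 2 lower. CAAHR 34 stood apart from the other CAAHR libraries. Slow fibre markers summed to 649 CPM in it against 2780 and 2520 in CAAHR 31 and 36, and to 228, 333 and 461 CPM in GFP 42, 43 and 46, so that all CAAHR libraries lay above all GFP libraries. Of these 9 markers, 1 was called higher by edgeR, 8 by DESeq2 and 9 by limma-voom. Tendon cell markers summed to 75.2 CPM in CAAHR 34, to 456 and 483 in CAAHR 31 and 36, and to 188, 323 and 311 in the GFP libraries. It was also the lowest of all 6 libraries for 11 of the 38 proteinase and inhibitor genes tested (28.9%), against 2999 of all 15847 genes tested (18.9%). For genes in which it decides a value, the result is given with and without it.

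Of the 51 genes, 38 had enough counts to be tested with edgeR. Another 9 did not (Mmp10, Mmp12, Mmp13, Mmp21, Mmp25, Mmp27, Adamts13, Adamts18 and Adamts19) and 4 had no count, where 3 counts in a library correspond to 0.0492 to 0.0721 CPM and lower levels were not detectable at this depth. Levels were compared between genes per kilobase of exon (FPKM). The family spanned several orders of magnitude, and 10 genes had a mean over 1 FPKM in both groups. Timp2 was the most abundant, with a mean of 20.7 FPKM in CAAHR and 27.4 in GFP. It was followed by Adamts1 at 12.1 and 11.1 FPKM, Timp3 at 9.39 and 10.9, and Mmp2 at 8.05 and 9.04. The muscle therefore contained more TIMP than MMP transcript per length, with an MMP to TIMP ratio of 0.457 to 0.532 in CAAHR libraries and 0.456 to 0.518 in GFP libraries. These ranges overlap.

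**Figure D1:**
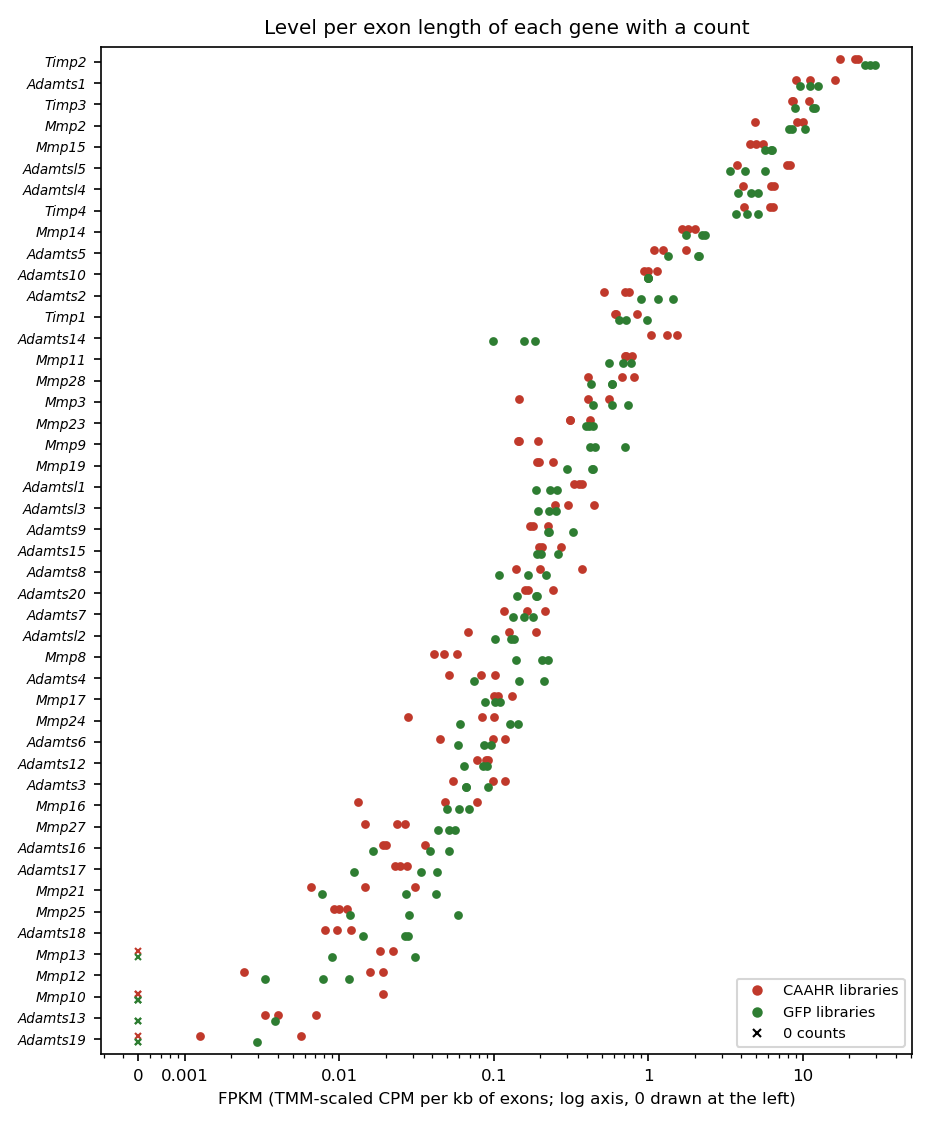
Level of each gene with at least 1 count in any library, in FPKM (TMM-scaled CPM per kilobase of exons, log axis with 0 drawn at the left), with 1 point per library, red for CAAHR and green for GFP. Timp2, Adamts1, Timp3 and Mmp2 were at the top in both groups, and the red and green points of Adamts14 and Mmp9 are separated whereas those of most genes mix.

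Sustained expression of CAAHR was accompanied by a change in few of these genes. Adamts14 rose 8.87-fold and Adamtsl1 rose 1.56-fold, while Mmp9, Mmp8 and Adamts2 fell (3.28-, 3.91- and 1.77-fold lower in CAAHR, ratios of group means). These 5 of 38 genes (13.2%) passed an adjusted p of 0.05 in edgeR's quasi-likelihood test, with Benjamini-Hochberg adjustment over all 15847 genes tested, against 7.60% of all genes. By direction, 2 were higher (5.26%, against 3.04% of all genes) and 3 lower (7.89%, against 4.57%), and 3 changed more than 2-fold (7.89%, against 3.48%), 1 of them upwards and 2 downwards (against 0.972% and 2.51% of all genes). The median log2 fold change of the 38 was −0.06, with 19 above and 19 below 0, and that of all genes tested was 0.01. The groups did not overlap for 9 of the 38 (23.7%, against 29.9% of all genes), namely Adamts14 and Adamtsl1, which were higher in CAAHR, and Mmp8, Mmp9, Mmp15, Mmp19, Timp2, Adamts2 and Adamts9, which were lower. An unadjusted p under 0.05 was reached by 9 of 38 (23.7%, against 23.9% of all genes). As in any bulk sample, fewer cells of a type and less RNA per cell cannot be told apart in these values.

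**Figure D2:**
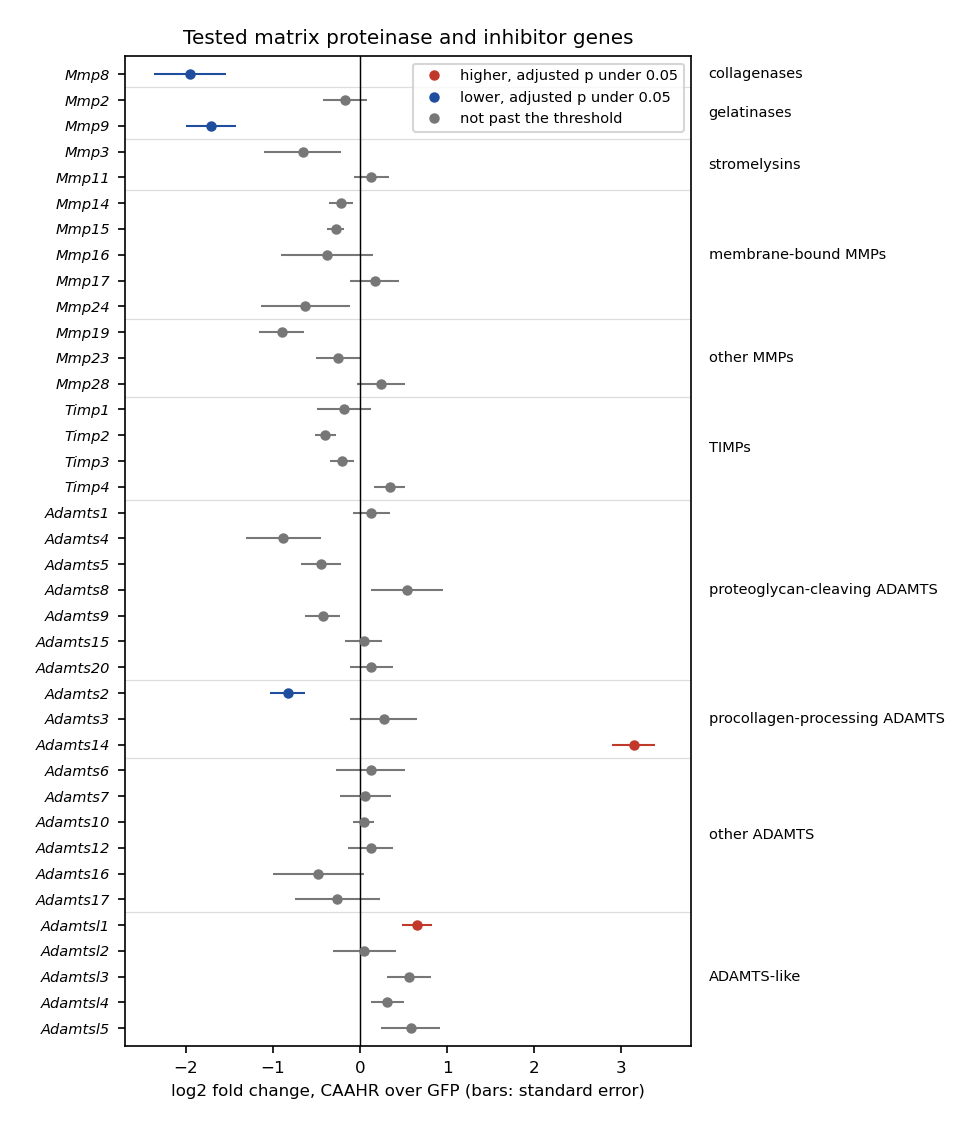
Log2 fold change of CAAHR over GFP for the 38 genes tested, grouped by role, with bars for the standard error. Adamts14 (3.14) and Adamtsl1 (0.65) in red were higher and Mmp8 (−1.95), Mmp9 (−1.71) and Adamts2 (−0.83) in blue were lower at an adjusted p under 0.05, and the other genes, in grey, did not pass.

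The procollagen-processing ADAMTS genes, Adamts2, Adamts3 and Adamts14, encode the enzymes that remove the N-terminal propeptide of fibrillar procollagens so that collagen can assemble. Adamts14 (chr10:61197112-61273438, GRCm38) was at 5.48, 7.98 and 6.92 CPM in CAAHR 31, 34 and 36, and at 0.518, 0.817 and 0.963 CPM in GFP 42, 43 and 46. Every CAAHR library was above every GFP library by a wide margin, and the CAAHR library with the highest level was CAAHR 34. The group means were 6.79 ± 1.26 and 0.766 ± 0.227 CPM (SD, n = 3 each), and the log2 fold change was 3.14 ± 0.25 (SE, edgeR adjusted p = 0.000222). This was the 14th smallest p among genes with a higher level in CAAHR and the 18th of all 15847. None of the 7 tested genes whose bodies lay within 250 kb of Adamts14 passed the test, with log2 fold changes of −0.36 to 0.56. Without CAAHR 34 the log2 fold change was 3.0 (edgeR adjusted p = 9.54e-05).

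Adamts2 (chr11:50602084-50807573) moved the other way. It was at 7.02, 4.85 and 6.63 CPM in the CAAHR libraries and at 10.8, 8.44 and 13.6 CPM in the GFP libraries, with no overlap between groups. CAAHR 34 was the lowest library. The means were 6.17 ± 1.16 and 10.9 ± 2.57 CPM (SD, n = 3 each), a log2 fold change of −0.83 ± 0.20 (SE, edgeR adjusted p = 0.0382), and −0.69 without CAAHR 34 (edgeR adjusted p = 0.0484). The call was lost without CAAHR 31 (−0.94, adjusted p = 0.0744), CAAHR 36 (−0.89, 0.102), GFP 42 (−0.84, 0.0895) or GFP 46 (−0.64, 0.122), all by edgeR. It was also lost when edgeR used library size only (adjusted p = 0.0611) and in limma-voom (adjusted p = 0.0578). Adamts3 had a log2 fold change of 0.27 ± 0.38 (SE, edgeR adjusted p = 0.726).

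The summed level of these 3 procollagen enzymes was 1.9, 2.11 and 2.16 FPKM in CAAHR 31, 34 and 36. In GFP 42, 43 and 46 it was 1.35, 1.13 and 1.71 FPKM, each below every CAAHR library. Their make-up differed more than their sum. Adamts14 accounted for 55.3%, 72.8% and 61.7% of that sum in CAAHR and for 7.4%, 13.9% and 10.9% in GFP. Adamts2 accounted for 24.6 to 39.5% in CAAHR and for 80.2 to 85.8% in GFP. Adamts14 was thus the most abundant of the 3 transcripts per length in each CAAHR library, and Adamts2 in each GFP library. These sums and shares carry no test, since they were formed from genes already compared.

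**Figure D3:**
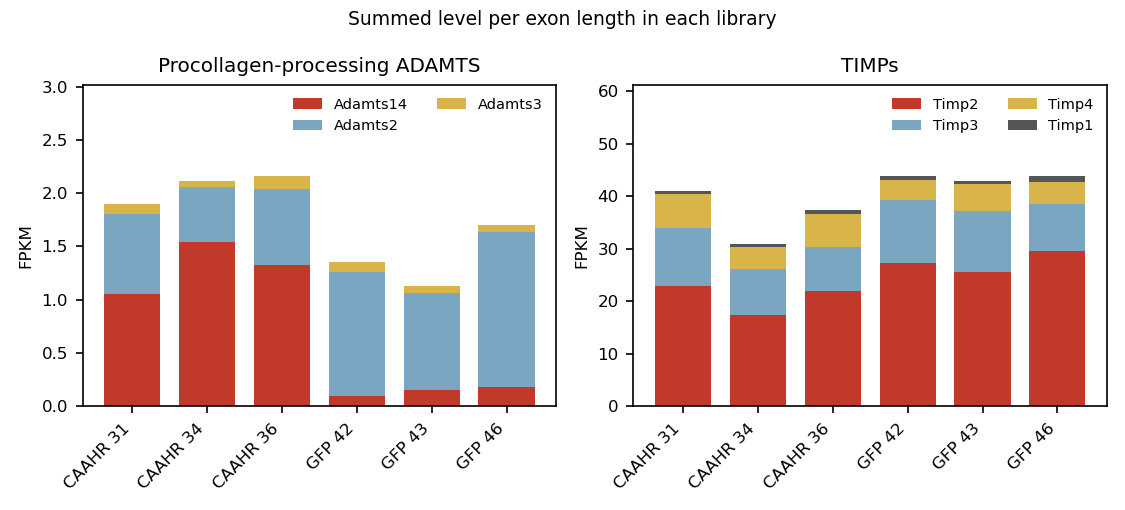
Summed FPKM in each library, stacked by gene, for the procollagen-processing ADAMTS genes (left) and the TIMPs (right). Adamts14 made up 55.3 to 72.8% of the left stack in CAAHR libraries and 7.4 to 13.9% in GFP libraries, and the TIMP stack reached 30.8 to 41 FPKM in CAAHR and 42.9 to 43.8 FPKM in GFP.

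The gelatinases, Mmp2 and Mmp9, degrade denatured collagen and basement membrane collagen, and Mmp9 is stored in neutrophil granules. Mmp9 (chr2:164940780-164955850) was at 0.514, 0.683 and 0.509 CPM in the CAAHR libraries and at 1.60, 1.49 and 2.51 CPM in the GFP libraries. The groups were well separated, and the most extreme library was GFP 46. The means were 0.568 ± 0.0989 and 1.87 ± 0.562 CPM (SD, n = 3 each), a log2 fold change of −1.71 ± 0.29 (SE, edgeR adjusted p = 0.0083). With GFP 46 left out it was −1.44 (edgeR adjusted p = 0.0384), and with CAAHR 34 left out −1.88 (edgeR adjusted p = 0.00577). Per exon length Mmp2, made mainly by fibroblasts, was far more abundant (8.05 and 9.04 FPKM) than Mmp9 (0.161 and 0.527 FPKM).

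Mmp2 was at 31.1, 16.7 and 33.7 CPM in the CAAHR libraries and at 27.6, 28.6 and 35.2 CPM in the GFP libraries. The low value was that of CAAHR 34, and the other libraries of both groups mixed. The log2 fold change was −0.17 ± 0.25 (SE, edgeR adjusted p = 0.756), and it turned to 0.08 without CAAHR 34.

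Among the collagenases, which cut intact fibrillar collagen, only Mmp8, the neutrophil collagenase, could be tested. Mmp8 (chr9:7558456-7568485) was at 0.0989, 0.140 and 0.115 CPM in the CAAHR libraries and at 0.497, 0.336 and 0.548 CPM in the GFP libraries. The groups did not overlap, but the level was low, with 5 to 8 counts per CAAHR library and 14 to 29 per GFP library. The log2 fold change was −1.95 ± 0.41 (SE, edgeR adjusted p = 0.0214). The call was lost without CAAHR 31 (−1.85, adjusted p = 0.0778), CAAHR 36 (−1.93, 0.0786), GFP 42 (−1.89, 0.0682) or GFP 46 (−1.80, 0.0871) by edgeR, and remained without CAAHR 34 (−2.09, 0.0307) or GFP 43 (−2.12, 0.0320).

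Markers of leukocytes were lower in CAAHR as well. Of 11 neutrophil markers, DESeq2 called 6 of 6 tested lower in CAAHR and limma-voom 3 of 5. By edgeR, 5 were testable and 4 of these were lower in CAAHR. They were S100a8 (log2 fold change −2.35, adjusted p = 0.00248) and S100a9 (−2.09, 0.0159), subunits of calprotectin, Csf3r (−1.78, 0.0274), the receptor of granulocyte colony-stimulating factor, and Retnlg (−2.54, 0.00496). The summed level of the 11 was 3.32, 2.38 and 2.46 CPM in CAAHR 31, 34 and 36 and 7.17, 10.5 and 17.4 CPM in GFP 42, 43 and 46. Elane, a defining granule protease, had no count in any library. All 10 macrophage markers were tested and none (0) passed edgeR's adjusted threshold, although 8 had an unadjusted p under 0.05, and their sum was 27.6 to 46.7 CPM in CAAHR and 54.7, 119 and 77.1 CPM in GFP 42, 43 and 46. DESeq2 called 7 of these 10 lower and limma-voom 1. Lymphocyte markers, with 2 of 7 tested genes lower by edgeR, 6 of 9 by DESeq2 and 1 of 7 by limma-voom, summed to 2 to 2.7 CPM in CAAHR and to 6.88, 41.3 and 11.6 CPM in GFP 42, 43 and 46. Neutrophil markers were thus highest in GFP 46, and macrophage and lymphocyte markers in GFP 43. The part of these cells in the change of Mmp8 and Mmp9 was not tested.

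**Figure D4:**
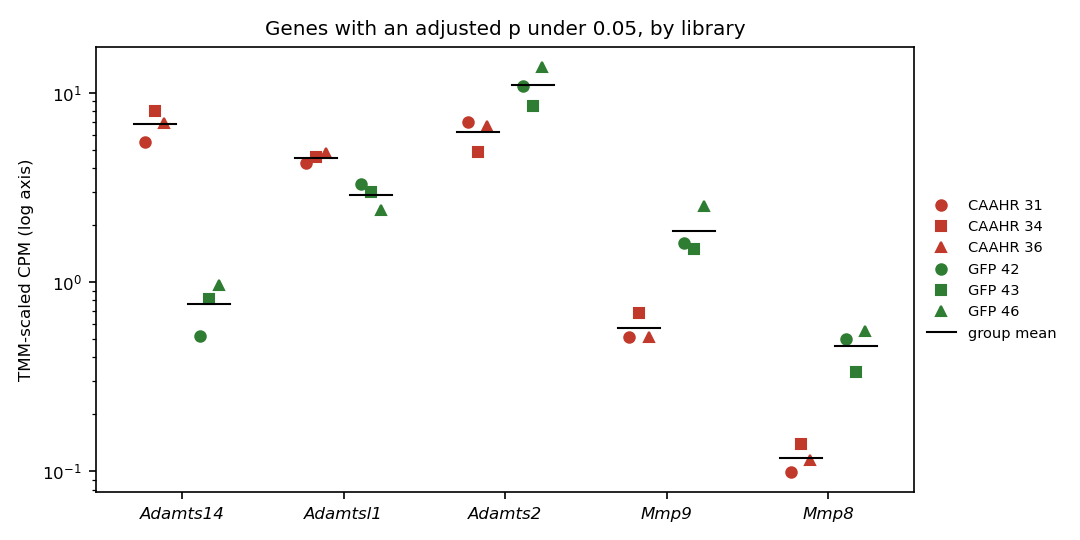
TMM-scaled CPM (log axis) of the 5 genes with an adjusted p under 0.05 in each library, with a marker per library and a line at each group mean. For each gene the 3 red CAAHR points and the 3 green GFP points do not overlap, with Adamts14 at 5.48 to 7.98 against 0.518 to 0.963 CPM and Adamtsl1 at 4.23 to 4.77 against 2.40 to 3.29 CPM.

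The membrane-bound MMPs included Mmp14, the cell-surface activator of pro-Mmp2, and Mmp15. Mmp14 was at 11.9, 10.7 and 9.84 CPM in the CAAHR libraries and at 13.3, 10.4 and 14.0 CPM in the GFP libraries, ranges that overlap (log2 fold change −0.22 ± 0.14, SE, edgeR adjusted p = 0.379). Mmp15 was at 24.7, 29.9 and 26.9 CPM in the CAAHR libraries and at 34.3, 30.8 and 33.8 CPM in the GFP libraries. Its groups did not overlap, but the difference was small and did not pass the test (−0.28 ± 0.10, SE, edgeR adjusted p = 0.129). The other tested genes of this class, Mmp16, Mmp17 and Mmp24, had log2 fold changes of −0.38, 0.17 and −0.63, none past the test. Mmp24 shares 13.6% of its exon length with BC029722, which had 805 to 1636 counts per library against 8 to 29. Mmp2, Mmp14 and Mmp15 together made up 83.8 to 84.4% of MMP transcript per length in CAAHR and 81 to 84.1% in GFP.

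Of the stromelysins tested, Mmp3 and Mmp11, the product of Mmp3 cleaves proteoglycans, laminin and pro-MMPs. Mmp3 was at 0.732, 0.263 and 1.0 CPM in the CAAHR libraries and at 1.33, 1.06 and 0.793 CPM in the GFP libraries, which overlap. CAAHR 34 was again the lowest, and without it the log2 fold change of Mmp3 was −0.29. Mmp11 was at 1.96, 2.0 and 2.20 CPM in the CAAHR libraries and at 1.91, 1.56 and 2.15 CPM in the GFP libraries. Neither passed the test (log2 fold changes of −0.66 ± 0.44 and 0.13 ± 0.20, SE, edgeR adjusted p = 0.405 and 0.76). The value of Mmp11 is uncertain, since 5.58% of its exon length is shared with Chchd10, which had 21324 to 32437 counts per library against 65 to 134 for Mmp11.

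Of the remaining MMPs, Mmp19 was the nearest to the threshold. It was at 0.850, 0.700 and 0.673 CPM in the CAAHR libraries and at 1.55, 1.54 and 1.06 CPM in the GFP libraries, without overlap (log2 fold change −0.90 ± 0.26, SE, edgeR adjusted p = 0.0691). The value is uncertain because 22.3% of its exon length is shared with Tmem198b and a further 6% with Gm47093. Tmem198b had 133 to 198 counts per library against 40 to 75 for Mmp19. Mmp23 was at 0.732, 0.735 and 0.984 CPM in the CAAHR libraries and at 0.974, 1.03 and 0.925 CPM in the GFP libraries (−0.25 ± 0.26, SE, edgeR adjusted p = 0.611). Mmp28 had a log2 fold change of 0.24 (edgeR adjusted p = 0.642).

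None of the 4 TIMPs passed the test in edgeR, and 1 of them, Timp2, had an unadjusted p under 0.05. Timp2, which inhibits MMPs and also takes part in pro-Mmp2 activation with Mmp14, was at 89.2, 67.7 and 85.3 CPM in the CAAHR libraries and at 106, 99.4 and 115 CPM in the GFP libraries. Each CAAHR library was below each GFP library, and CAAHR 34 was the lowest. The log2 fold change was −0.40 ± 0.12 (SE, edgeR adjusted p = 0.0733). It was −0.30 without CAAHR 34 (edgeR adjusted p = 0.11). DESeq2, which called 6 of the 42 family genes and 10.3% of all 18640 genes it tested, placed Timp2 past the threshold (−0.41, adjusted p = 0.034). So did edgeR with upper quartile scaling (−0.48, adjusted p = 0.0408) and edgeR with no filter on low counts (−0.39, adjusted p = 0.0133). The latter called 8 of the 47 family genes it tested and 8.62% of all 28661.

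Timp4, the TIMP that is most enriched in heart and skeletal muscle, leaned the other way. It was at 37.8, 24.8 and 36.1 CPM in the CAAHR libraries and at 21.9, 30.2 and 25.7 CPM in the GFP libraries. CAAHR 31 and 36 were above every GFP library while CAAHR 34 lay among them. The log2 fold change was 0.34 ± 0.18 (SE, edgeR adjusted p = 0.28), and 0.50 without CAAHR 34 (edgeR adjusted p = 0.0388). With no filter on low counts it was 0.36 ± 0.12 (SE, edgeR adjusted p = 0.0265), nearly the same change with a smaller standard error.

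Timp3, which is bound to the matrix and also inhibits ADAMTS proteinases, was at 89.7, 70.5 and 69.1 CPM in the CAAHR libraries and at 98.7, 94.7 and 72.7 CPM in the GFP libraries (−0.21 ± 0.14, SE, edgeR adjusted p = 0.414). Of its exon length 21.3% is shared with Syn3, which had 16 to 33 counts per library against 3849 to 4762 for Timp3. Timp1, the inducible TIMP, was at 0.554, 0.543 and 0.755 CPM in the CAAHR libraries and at 0.642, 0.577 and 0.869 CPM in the GFP libraries (−0.18 ± 0.31, SE, edgeR adjusted p = 0.79). Both sets of ranges overlap. Timp1, Timp3 and Timp4 each lie within a synapsin gene (Syn1, Syn3 and Syn2). In sum the 4 TIMPs reached 41, 30.8 and 37.3 FPKM in CAAHR 31, 34 and 36 and 43.8, 42.9 and 43.7 FPKM in GFP 42, 43 and 46. Timp2 made up 55.9 to 58.6% of this in CAAHR and 59.4 to 67.4% in GFP, and Timp4 13.6 to 16.4% and 8.48 to 12%.

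The proteoglycan-cleaving ADAMTS genes were led by Adamts1, whose product cleaves versican and aggrecan. Adamts1 was at 48.0, 85.6 and 59.3 CPM in the CAAHR libraries and at 59.1, 66.3 and 50.7 CPM in the GFP libraries, with the highest value in CAAHR 34 and the other libraries mixed (log2 fold change 0.13 ± 0.21, SE, edgeR adjusted p = 0.762). Without CAAHR 34 the sign of Adamts1 turned (−0.14, adjusted p = 0.584). None of the 7 genes tested here passed in edgeR, limma-voom or DESeq2, and none had an unadjusted edgeR p under 0.05. The smallest p-values belonged to Adamts9 and Adamts4. Adamts9 was at 2.61, 2.70 and 3.38 CPM in the CAAHR libraries and at 4.87, 3.39 and 3.44 CPM in the GFP libraries, which only just missed overlapping (−0.43 ± 0.20, SE, edgeR adjusted p = 0.225). Its exons share 9.18% of their length with A730049H05Rik, at 0 to 8 counts per library, and 2.82% with Gm15737, at 3 to 30 counts against 132 to 235 for Adamts9. Gm15737 was itself lower in CAAHR (−2.18, edgeR adjusted p = 0.0196). Adamts4 was at 0.395, 0.490 and 0.246 CPM in the CAAHR libraries and at 1.02, 0.361 and 0.699 CPM in the GFP libraries (−0.88 ± 0.43, SE, edgeR adjusted p = 0.253). Adamts5, the other main aggrecanase, had a log2 fold change of −0.45 ± 0.23 (SE, edgeR adjusted p = 0.275). When no filter on low counts was applied it was −0.44 ± 0.13 (SE, edgeR adjusted p = 0.00989), nearly the same change with a smaller standard error.

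Of the other ADAMTS genes, 6 were tested and none passed in edgeR, limma-voom or DESeq2, nor had an unadjusted edgeR p under 0.05. Their log2 fold changes were near 0 for Adamts6, Adamts7, Adamts10 and Adamts12 (0.04 to 0.12). The smallest p-values belonged to Adamts16 and Adamts17, with 63 and 67 counts over all libraries. Adamts16 was at 0.138, 0.245 and 0.131 CPM in the CAAHR libraries and at 0.352, 0.264 and 0.113 CPM in the GFP libraries, and Adamts17 at 0.178, 0.193 and 0.213 CPM and at 0.332, 0.0961 and 0.264 CPM. The groups overlap for both (−0.48 ± 0.52 and −0.26 ± 0.49, SE, edgeR adjusted p = 0.639 and 0.806).

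All 5 ADAMTS-like genes had log2 fold changes above 0 (median 0.56), against 51.2% of all genes tested. However, that of Adamtsl2 (0.05) turned to −0.35 without CAAHR 31 and −0.06 without GFP 43. Of the 5, 1 gene passed the test, against 7.60% of all genes. These proteins bind microfibrils and other matrix components. Adamtsl1 (chr4:85514172-86428385) was at 4.23, 4.57 and 4.77 CPM in the CAAHR libraries and at 3.29, 2.98 and 2.40 CPM in the GFP libraries. The groups did not overlap, with means of 4.52 ± 0.274 and 2.89 ± 0.455 CPM (SD, n = 3 each). The log2 fold change was 0.65 ± 0.17 (SE, edgeR adjusted p = 0.0463), close to the threshold. It was lost on leaving out any 1 library, where edgeR adjusted p was 0.0856, 0.0564 and 0.154 without CAAHR 31, 34 and 36 and 0.0593, 0.114 and 0.137 without GFP 42, 43 and 46, with log2 fold changes of 0.53 to 0.76. It was also lost with upper quartile scaling (adjusted p = 0.0623).

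Adamtsl3 was at 3.44, 1.93 and 2.35 CPM in the CAAHR libraries and at 1.76, 1.97 and 1.49 CPM in the GFP libraries, which overlap only because CAAHR 34 lay within the GFP range (0.56 ± 0.25, SE, edgeR adjusted p = 0.205). It was 0.72 without that library (edgeR adjusted p = 0.08). Adamtsl5 was at 39.2, 17.7 and 37.3 CPM in the CAAHR libraries and at 16.1, 20.1 and 26.8 CPM in the GFP libraries (0.58 ± 0.34, SE, edgeR adjusted p = 0.374). Here too CAAHR 34 lay with the GFP libraries. Without it, Adamtsl5 (0.85, adjusted p = 0.0294) and Adamtsl4 (0.48, adjusted p = 0.0467) passed the edgeR test. In all, 7 of the 39 family genes then tested passed, while calls over all genes rose to 10.7% of 16180. The slow fibre and tendon cell markers were likewise lowest in CAAHR 34 among the CAAHR libraries, with slow fibre markers at 649 to 2780 CPM in CAAHR and 228 to 461 CPM in GFP, and their part in these values was not tested.

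**Figure D5:**
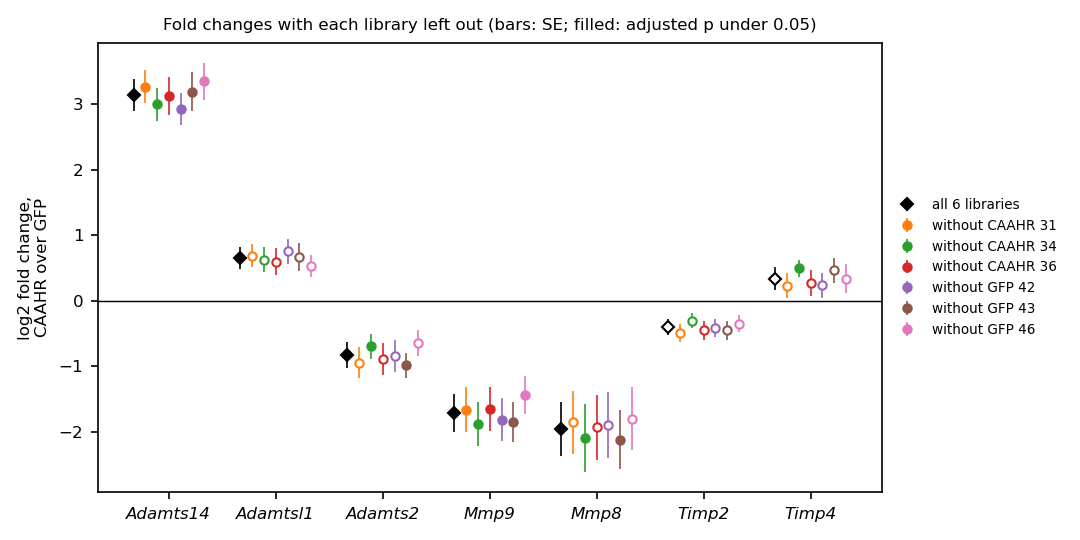
Log2 fold change of CAAHR over GFP with all 6 libraries (diamonds) and with each left out in turn (circles), with bars for the standard error and filled symbols for an edgeR adjusted p under 0.05. Adamts14 (2.93 to 3.35) and Mmp9 (−1.88 to −1.44) stayed filled throughout, Adamts2 and Mmp8 became open without CAAHR 31, CAAHR 36, GFP 42 or GFP 46, Adamtsl1 became open in all 6, and Timp4 was filled only without CAAHR 34.

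Of 30 listed activators, regulators and clearance factors of the proteinases, 27 were tested, 1 was higher and 1 lower (7.41%, against 7.60% of all genes). Ctsb, encoding the lysosomal protease cathepsin B, was at 300, 316 and 335 CPM in the CAAHR libraries and at 204, 216 and 220 CPM in the GFP libraries, without overlap (log2 fold change 0.57 ± 0.10, SE, edgeR adjusted p = 0.0089). Plaur, the urokinase receptor, which localises plasminogen activation at the cell surface and is expressed by leukocytes, was at 0.613, 0.910 and 0.673 CPM in the CAAHR libraries and at 1.35, 1.32 and 1.76 CPM in the GFP libraries. It fell by 1.01 ± 0.26 on the log2 scale (SE, edgeR adjusted p = 0.0484). The call was lost in edgeR with library size only (adjusted p = 0.0533) and without CAAHR 31 (0.13), CAAHR 36 (0.147), GFP 42 (0.0885), GFP 43 (0.087) or GFP 46 (0.161). The median log2 fold change of the list was −0.02.

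Of 23 listed matrix substrates, 21 were tested and 1 passed (4.76%, against 7.60% of all genes), with a median log2 fold change of −0.02. Hspg2, which encodes the basement membrane proteoglycan perlecan, was at 181, 169 and 202 CPM in the CAAHR libraries and at 129, 110 and 139 CPM in the GFP libraries, without overlap (0.55 ± 0.12, SE, edgeR adjusted p = 0.0246). The call was lost without CAAHR 31 (adjusted p = 0.072), CAAHR 36 (0.107), GFP 42 (0.0624) or GFP 43 (0.0954) by edgeR. The fibrillar procollagen genes, whose products Adamts2 and Adamts14 trim, did not pass. Col1a1, Col1a2 and Col3a1 had log2 fold changes of 0.10, 0.04 and −0.20 (edgeR adjusted p = 0.883 for Col1a1 and 0.59 for Col3a1). Fibroblast markers, a further source of these transcripts, summed to 378 to 586 CPM in CAAHR and 566 to 783 CPM in GFP, with none (0) of 8 past the edgeR adjusted threshold, 3 with an unadjusted p under 0.05 and 1 called lower by DESeq2. Endothelial markers summed to 187 to 269 and 198 to 250 CPM, and smooth muscle markers to 314 to 514 and 388 to 399 CPM, with none (0) of the 7 tested in either list past the adjusted threshold in edgeR or DESeq2 and 1 and 0 of them under an unadjusted p of 0.05. Adipocyte markers summed to 86.5 to 139 CPM in CAAHR and 109 to 231 CPM in GFP, with 3 of 7 lower by edgeR (Plin1, Retn and Cfd). The part of these cell types in the values of the proteinase and inhibitor genes was not tested.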

How the data were processed

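Gene counts of 3 CAAHR and 3 GFP libraries were deposited by the authors as whole-number counts of unique exonic reads per gene. Per the labels and the study's methods, polyA-selected paired-end reads of 150 bp were trimmed with Trimmomatic 0.36, aligned to GRCm38 with STAR 2.5.2b and counted with featureCounts. Only uniquely mapped reads were counted, which lowers counts where genes share sequence, and the strandedness of the libraries is not stated. Library totals were 43432994 to 58825752. The 174 rows without a symbol (0.0154% of counts) stayed in the fit, but could not be selected by name for the family or the lists.

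Counts were filtered with filterByExpr, scaled by TMM and tested with edgeR 4.0.16 (R 4.3.3, robust quasi-likelihood test, Benjamini-Hochberg adjustment over 15847 genes, threshold 0.05). FPKM was TMM-scaled CPM per kilobase of the GENCODE M21 exon union. The procedure was tested on simulated data from these libraries (15604 genes tested), in which a median of 90% of genes changed 4-fold and 64% of genes changed 2-fold were called over 3 simulations. Each simulation changed 100 genes 4-fold and 100 genes 2-fold, fewer than the 1205 genes called in the data. The adjusted threshold depends on that number, so these rates need not carry over. The authors' own comparison used DESeq2, which is an alternative here (1.42.0), beside limma-voom (3.58.1), other scalings and filters, and leaving out each library. Values in every library are given for genes past the threshold, the 4 TIMPs, Mmp2, Mmp14 and the 2 tested genes of smallest p in each sub-family. Adamts1 and Adamtsl5 were added after their values were seen. The genes and all lists were chosen with earlier results of these data known.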

Additional observations from a re-analysis of the deposited data

How the results depend on the processing

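The number of called genes, 5 of 38 tested, was 5 of 38 with DESeq2 size factors and 5 of 38 with upper quartile scaling (Timp2 in place of Adamtsl1). It was 4 of 38 with library size only (Adamts2 lost), 4 of 38 with limma-voom (Adamts2 lost) and 5 of 38 without robust estimation. With no filter on low counts it was 8 of 47 (adding Adamts5, Timp2 and Timp4), and with DESeq2 6 of 42 (adding Timp2). With at least 10 counts in every library it was 3 of 33 (Mmp8 was then not tested and Adamtsl1 was lost). It was 2 to 7 of the 38 or 39 tested on leaving out 1 library. Adamts14 and Mmp9 were called in 14 of 14 alternatives each, Mmp8 in 9 of 13, Adamts2 in 8 of 14 and Adamtsl1 in 6 of 14. Calls among the pathway genes rose from 3 to 7 with no filter, 7 with DESeq2 and 5 without robust estimation, and were 1 to 5 on leaving out 1 library. The cause was not tested. With no filter, the log2 fold change of Adamts14 was 3.16 against 3.14, while its edgeR adjusted p was 1.83e-44 against 0.000222. The family calls added in that setting (Adamts5, Timp2 and Timp4) likewise came at nearly unchanged log2 fold changes. Over all genes, 1205 of 15847 passed in the main test (7.60%), 1921 of 18640 in DESeq2 (10.3%) and 2470 of 28661 with no filter (8.62%). Of 15847 genes, 1224 passed with DESeq2 size factors, 1348 with upper quartile scaling and 1476 with library size only. Limma-voom called 1461 of these and edgeR without robust estimation 1279. With at least 10 counts in every library 1016 of 14231 passed. Leaving out 1 library gave 530 of 16170 (without CAAHR 36) to 1727 of 16180 (without CAAHR 34). Among the 38 tested genes the sign turned in at least 1 alternative for 12, none (0) of them called and all with log2 fold changes of −0.38 to 0.13. Among those given in every library by the naming rule these were Mmp2 (0.08 without CAAHR 34, −0.36 at the lowest with 1 library left out), Timp1 (0.02 without GFP 46, −0.36 at the lowest) and Adamts17 (0.03 with limma-voom, 0.08 without GFP 42, −0.6 at the lowest). Of 291 checks of single genes, 264 kept direction and side of the threshold. With 3 libraries a group, 2-fold changes were often missed in simulation, and genes below 1 CPM rest on few counts. No paired analysis was possible because CAAHR and GFP libraries carried different numbers.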
